A study of Mus musculus with 2 samples.

Results

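The genes described here are 7 matrix metalloproteinases, *Mmp2*, *Mmp3*, *Mmp9*, *Mmp12*, *Mmp13*, *Mmp14* and *Mmp19*, and 3 tissue inhibitors of metalloproteinases, *Timp1*, *Timp2* and *Timp3*. They were taken by symbol from the 31053 genes of the count matrices, all 10 were found, and all 10 had unique molecular identifiers (UMIs, each standing for 1 captured RNA molecule) in both libraries. The data are single-cell RNA sequencing of live, 7AAD-negative cells from back skin wounds, with 1 library of a PBS group and 1 of a diphtheria toxin (DTX) group, collected 5 days after wounding. The 10 mm punch of the labels was used to collect the tissue and does not give the size of the wounds. According to the sample labels, mice of both groups were *Mrc1-DTR* animals of 7 to 9 weeks on the C57BL/6 background and differed in receiving PBS or DTX, whereas the methods of the study describe wild-type controls given the toxin, so the libraries are named here by their labelled treatment. In *Mrc1-DTR* mice the diphtheria toxin receptor is under control of the promoter of *Mrc1*, which encodes CD206, and the toxin acts on cells that use this promoter. Mice of a group were pooled and the methods state that there were no biological replicates. With 1 library per group no test between the conditions was possible, no p-value is given, and all intervals are exact 95% intervals that cover counting error only.

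Matrix metalloproteinases are zinc proteases that cleave collagens, other matrix proteins and signaling proteins, and most are secreted as inactive proenzymes. *Mmp13* encodes an interstitial collagenase, *Mmp3* stromelysin-1, *Mmp2* and *Mmp9* the gelatinases A and B, *Mmp12* the macrophage metalloelastase, *Mmp14* a membrane-anchored collagenase that also activates pro-MMP2, and *Mmp19* a secreted protease of broader matrix specificity. The TIMP proteins block the active site of these enzymes; TIMP2 also takes part in pro-MMP2 activation at the cell surface, and TIMP3 binds to the extracellular matrix. In healing skin, keratinocytes at the wound edge, dermal fibroblasts and infiltrating myeloid cells are known to use different members of the family.

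*Mmp13*, *Mmp12* and *Mmp3* are neighbors on chromosome 9, and the stretch from the start of *Mmp13* to the end of *Mmp3* covers 183462 bases (chr9:7272514-7455975, mm10) with *Mmp1b* as its only other protein-coding gene. The UMIs of these neighbors came mainly from different cell classes, macrophage and dendritic for *Mmp12*, fibroblast for *Mmp3* and, in the PBS library, epithelial for *Mmp13* (83.1% of its UMIs). In the DTX library 35.0% of the *Mmp13* UMIs were in macrophage-like cells, 24.8% in epithelial-like cells and 24.8% in endothelial-like cells. The 250 bases before their starts are printed because each holds a match to the AP-1 site TGANTCA, which is its own reverse complement and is shown in capitals (RefSeq, GRCm38.p6, plus strand, 5′ to 3′; chr9:7272264-7272513 for *Mmp13*, chr9:7347124-7347373 for the downstream of the *Mmp12* starts in the table and chr9:7445572-7445821 for *Mmp3*).
Mmp13: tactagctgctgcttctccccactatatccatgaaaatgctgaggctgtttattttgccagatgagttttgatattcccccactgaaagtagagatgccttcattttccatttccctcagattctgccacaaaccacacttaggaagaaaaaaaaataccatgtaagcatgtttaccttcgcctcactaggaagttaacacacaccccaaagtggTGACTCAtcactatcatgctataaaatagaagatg
Mmp12: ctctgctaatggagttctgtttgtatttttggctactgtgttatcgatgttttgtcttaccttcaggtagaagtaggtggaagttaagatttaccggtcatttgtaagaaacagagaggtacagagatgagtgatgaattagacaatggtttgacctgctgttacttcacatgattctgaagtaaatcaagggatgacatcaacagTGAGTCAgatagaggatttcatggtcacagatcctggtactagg
Mmp3: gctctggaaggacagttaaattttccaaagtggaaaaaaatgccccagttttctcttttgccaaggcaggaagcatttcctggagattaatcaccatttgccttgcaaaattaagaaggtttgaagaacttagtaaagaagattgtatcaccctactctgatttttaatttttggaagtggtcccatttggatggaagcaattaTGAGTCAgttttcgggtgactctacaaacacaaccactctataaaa
The AP-1 match lies at -35 to -29 from the start in *Mmp13*, at -44 to -38 in *Mmp12* and at -46 to -40 in *Mmp3*. The upstream start of *Mmp12*, at base 7344397, had no match. Among the 7 members in the promoter table, these 3 had a match, against 6.75% of all 32851 windows of the same length. TATAAA, searched on both strands, was found in *Mmp13* and *Mmp3* and in 12.4% of all windows. A match describes the letters of the window and not a bound site. *Mmp2*, *Mmp9* and *Mmp19* were not analysed here for these motifs.

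The other members are spread over the genome (mm10, GENCODE M21): *Mmp2* at chr8:92827291-92853420, *Mmp9* at chr2:164940780-164955850, *Mmp14* at chr14:54431612-54445364, *Mmp19* at chr10:128790910-128800824, *Timp1* at chrX:20870166-20874735, *Timp2* at chr11:118301069-118355740 and *Timp3* at chr10:86300372-86349506. *Timp1* lies within *Syn1* and *Timp3* within *Syn3*, both on the opposite strand, and *Timp2* shares 10141 bases with *Cep295nl* on its own strand. Reads of the overlap with *Cep295nl* could have been lost or assigned to either gene.

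The PBS library held 12058 barcodes with 105511870 UMIs and the DTX library 11031 with 81858751, and 37 barcodes occurred in both. The text of the study assigns its numbers of cells to the groups in the opposite order, the labels were followed here, and every direction of DTX over PBS depends on them. After barcodes with fewer than 500 genes or more than 6% mitochondrial UMIs and doublets were removed, 7944 PBS and 6613 DTX cells remained, of which 13 barcodes were shared. Cells were clustered without the 10 genes and without a wider list of related genes, and classes were named from marker lists. The libraries differed strongly in composition: macrophage-like cells made up 21.5% of kept cells (1710 cells) in the PBS library and 67.1% (4438 cells) in the DTX library, fibroblast-like cells numbered 3065 and 656, and epithelial-like cells 2066 and 235. *Mrc1*, whose promoter drives the receptor, was at 491 CPM (UMIs per 1e+06 UMIs of the class) in PBS macrophage-like cells and 429 in DTX macrophage-like cells, a log2 ratio of -0.19 (-0.25 to -0.14). Classes with at least 50 cells in each library also included dendritic (450 and 440 cells), neutrophil (130 and 460), NK or T (225 and 151), pericyte (61 and 112) and endothelial (73 and 55). The neutrophil class had few UMIs per cell, with a median of 0.241 of that of its library. A dendritic cluster had no dendritic marker among its 10 leading genes and was named by its raised markers.

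Most members had a clear home class (the heatmap of levels by class). *Mmp2* and *Mmp3* were fibroblast genes in both libraries: fibroblast-like cells held 98.0% and 97.8% of all *Mmp2* UMIs of the PBS and DTX libraries, and 97.0% and 97.7% of those of *Mmp3*. Fibroblast-like cells were also highest in *Mmp14*, *Timp1* and *Timp2* in both libraries. *Mmp19* was highest in macrophage-like cells, which held 55.4% of its UMIs in the PBS and 88.5% in the DTX library. *Mmp12* was highest in dendritic-like cells (189.6 CPM, 176 to 203, in PBS; 58.1 CPM, 51.7 to 65.2, in DTX), above macrophage-like cells (103 and 15.1 CPM), and the intervals of these neighbors in the order did not overlap. *Mmp9* was highest in neutrophil-like cells, followed in the PBS library by Langerhans-like cells (97.6 CPM, 81.2 to 116). *Timp3* was highest in pericyte-like and then endothelial-like cells, whose intervals were apart in the PBS library (350.0 CPM, 312 to 391, against 239, 211 to 271) and overlapped in the DTX library (309 CPM, 283 to 337, against 290.5, 254 to 331). *Mmp13* was highest in epithelial-like cells in the PBS library (102 CPM, 98.3 to 106) and in endothelial-like cells in the DTX library (333 CPM, 294 to 377). Because UMI counts were not scaled for the capture of each gene, levels are compared here between classes and libraries and not between genes.

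**Figure D1:**
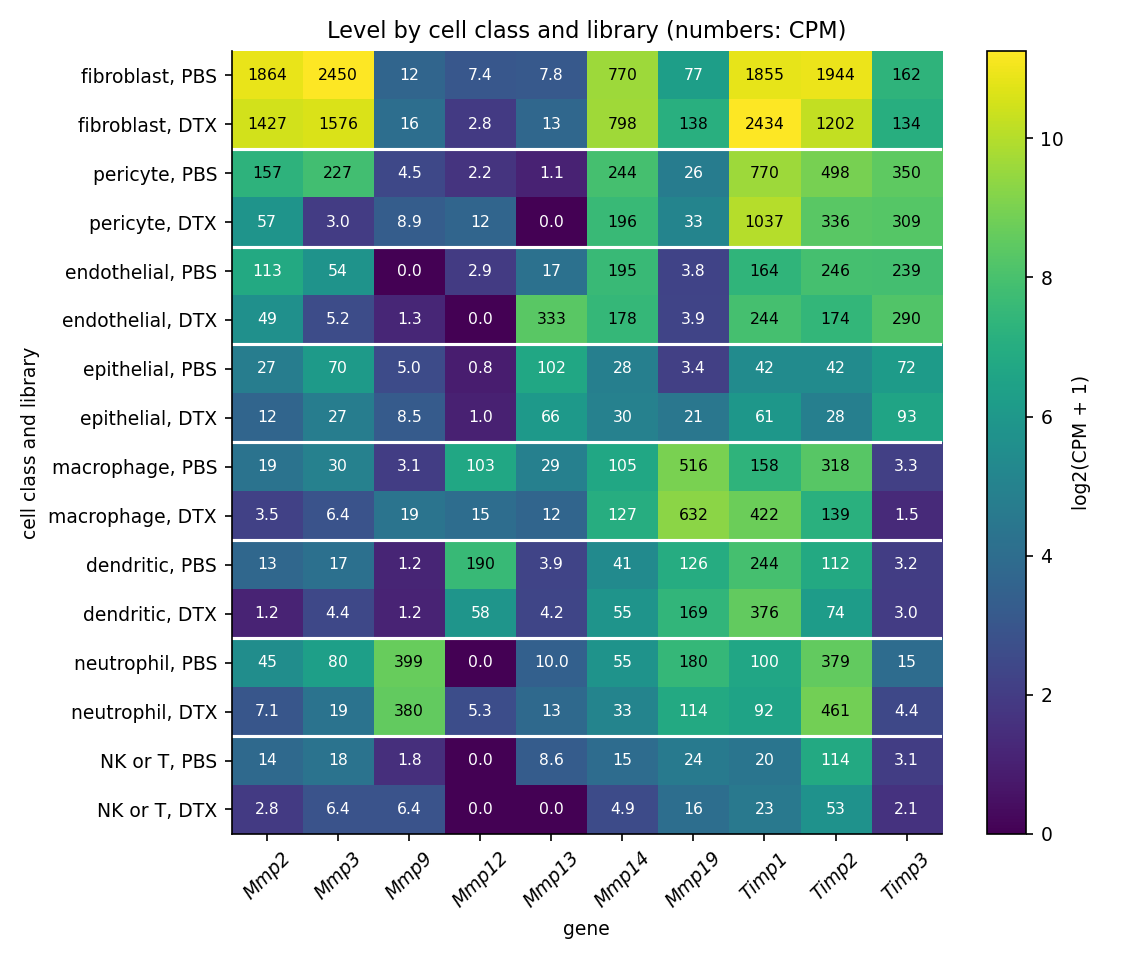
Level of the 10 genes (columns) in cell classes of the PBS and DTX libraries (rows), in CPM of the summed UMIs of a class, with the color on a log scale. *Mmp2* and *Mmp3* stand out in fibroblast-like cells, *Mmp9* in neutrophil-like cells, *Mmp19* in macrophage-like cells and *Timp3* in pericyte-like and endothelial-like cells.

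Counted over all kept cells, the levels of all 10 genes differed between the libraries beyond counting error, while the makeup of the libraries differed as well. *Mmp19* went from 96.0 CPM in the PBS library to 399 CPM in the DTX library. *Timp1* went from 858 to 745 CPM, although it was higher in DTX within both fibroblast-like cells, which held 93.3% of its UMIs in the PBS library and 57.8% in the DTX library, and macrophage-like cells, which held 1.9% and 31.6%. The comparisons below are therefore within classes, as log2 ratios of DTX over PBS after adding 1 CPM to both. The interval is that of the CPM ratio with nothing added, so for low genes the ratio can lie near the edge of its interval. A gene was counted as higher or lower when the libraries were at least 2-fold apart, among genes with at least 50 UMIs in the class.

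In macrophage-like cells, the elastase *Mmp12* and the inhibitor *Timp2* were lower in the DTX library, while the inhibitor *Timp1* was higher. *Mmp12* was at 103 CPM (96.1 to 110.0, 861 UMIs) in PBS and at 15.1 CPM (13.7 to 16.5, 462 UMIs) in DTX, a log2 ratio of -2.69 (-2.94 to -2.61). *Timp1* went from 158 CPM (149 to 166) to 422 (414 to 429), a log2 ratio of 1.41 (1.34 to 1.5). *Timp2* went the other way, from 318 CPM (306 to 331) to 139 (135 to 144), with -1.19 (-1.26 to -1.12). The 2 inhibitors thus differed in opposite directions in the sums of the class. In the DTX library 50.6% of the *Timp1* UMIs of the class were in the monocyte-like subcluster 1 described below, which held 42.1% of its cells. Of the *Timp2* UMIs 55.0% were in subcluster 0, which held 29.2% of the cells. *Mmp13* was at 29.4 and 11.8 CPM (-1.24, -1.55 to -1.07). The gelatinase *Mmp9* was at 3.1 and 19.0 CPM (2.29, 2.05 to 3.24), but 490 of its 583 DTX UMIs were in 7 of 4438 cells, and its direction turned to -0.32 with doublets kept and to -0.11 with a mitochondrial limit of 10%. *Mmp19* (516 and 632 CPM, 0.29, 0.25 to 0.34) and *Mmp14* (105 and 127 CPM, 0.27, 0.17 to 0.38) were slightly higher in DTX and remained under 2-fold. Of the 10 members 2 were higher, *Timp1* and *Mmp9*, and 5 lower, *Mmp12*, *Mmp2*, *Mmp3*, *Mmp13* and *Timp2*, where 1.62% of the 10177 genes measured in the class were higher and 3.32% lower, and the median log2 ratio of the members was -0.98 against 0.06 over all genes. This count and median include *Mmp9* and also *Mmp2* and *Mmp3*, whose UMIs in this class are compared below with those scaled from fibroblast-like cells. Under the limit of 2000 genes per cell given in the methods, under which an *Arg1*-led cluster stayed unnamed and outside the class, *Timp1* was at 0.49 and no longer 2-fold apart and *Timp2* at -0.85.

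**Figure D2:**
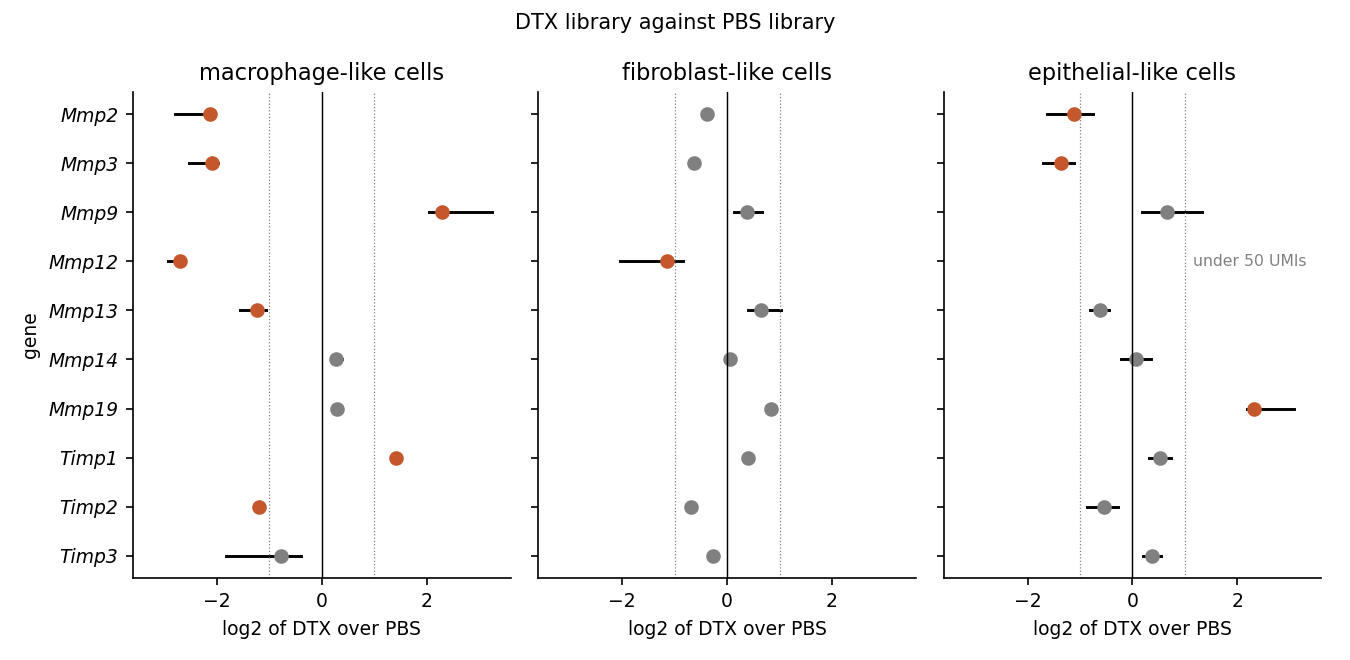
Log2 ratio of DTX over PBS for the members in macrophage-like, fibroblast-like and epithelial-like cells, with exact 95% counting intervals, dotted lines at 2-fold and orange points for genes at least 2-fold apart. *Timp1* lies to the right and *Timp2* to the left of 0 in each of the 3 classes, and *Mmp19* reaches 2.32 in epithelial-like cells. The ratios are of counted UMIs, from which no free RNA of other classes was subtracted.

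Shares of cells with a UMI were compared at 1 depth. Cells were thinned to 2000 UMIs and shallower cells were left out, which removed 222 of 1710 PBS and 139 of 4438 DTX macrophage-like cells. *Timp1* was detected in 18.5% of PBS and 32.2% of DTX macrophage-like cells, *Timp2* in 41.5% and 19.1%, and *Mmp19* in 42.9% and 52.6%. Without thinning the shares were 29.4% and 48.7% for *Timp1*, 61.2% and 39.0% for *Timp2* and 57.8% and 74.7% for *Mmp19*. *Mmp12* was detected in 5.04% (3.98% to 6.28%) of PBS and 1.58% (1.23% to 2.00%) of DTX macrophage-like cells, while 0.369% of PBS and 0.308% of DTX fibroblast-like cells, taken as the background class at the same thinned depth, had a UMI. For each of these 4 genes the share differed in the same direction as the level.

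The macrophage-like cells fell into 5 subclusters, whose sizes differed between the libraries (the plot of macrophage subclusters). Subcluster 0, led by *Ccl8*, *Lpl* and *C1qa*, held 1469 PBS and 1294 DTX cells; subcluster 1, led by *Hp* and *Vcan* and monocyte-like by its markers, 128 and 1870; subcluster 2, *Arg1*-high, 5 and 1063; subcluster 3, led by stress genes, 48 and 137; and subcluster 4, led by interferon-induced genes, 60 and 74. *Mmp12* was lower in DTX within subcluster 0 itself, at 118 and 16.9 CPM (log2 ratio -2.73), and was at 23.4 and 10.7 CPM in subcluster 1. *Timp1* was higher in DTX within subcluster 0 (151 and 244 CPM, 0.69) and subcluster 1 (209 and 452 CPM, 1.11), and at 616 CPM in the *Arg1*-high cells of the DTX library. For *Timp2* the picture was different. Within subcluster 0 it was at 349 and 302 CPM (-0.21) and within subcluster 1 at 84.9 and 60.4 CPM (-0.48), smaller differences than the -1.19 of the class as a whole, in which the low subclusters 1 and 2 held most DTX and few PBS cells. Among the subclusters of the DTX library *Mmp19* and *Mmp14* were highest in the *Arg1*-high cells, with 909.9 and 224 CPM, against 598 and 123 CPM in subcluster 0, and *Mmp19* was lowest in the stress-gene subcluster, with 52.6 CPM in PBS and 111 CPM in DTX.

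**Figure D3:**
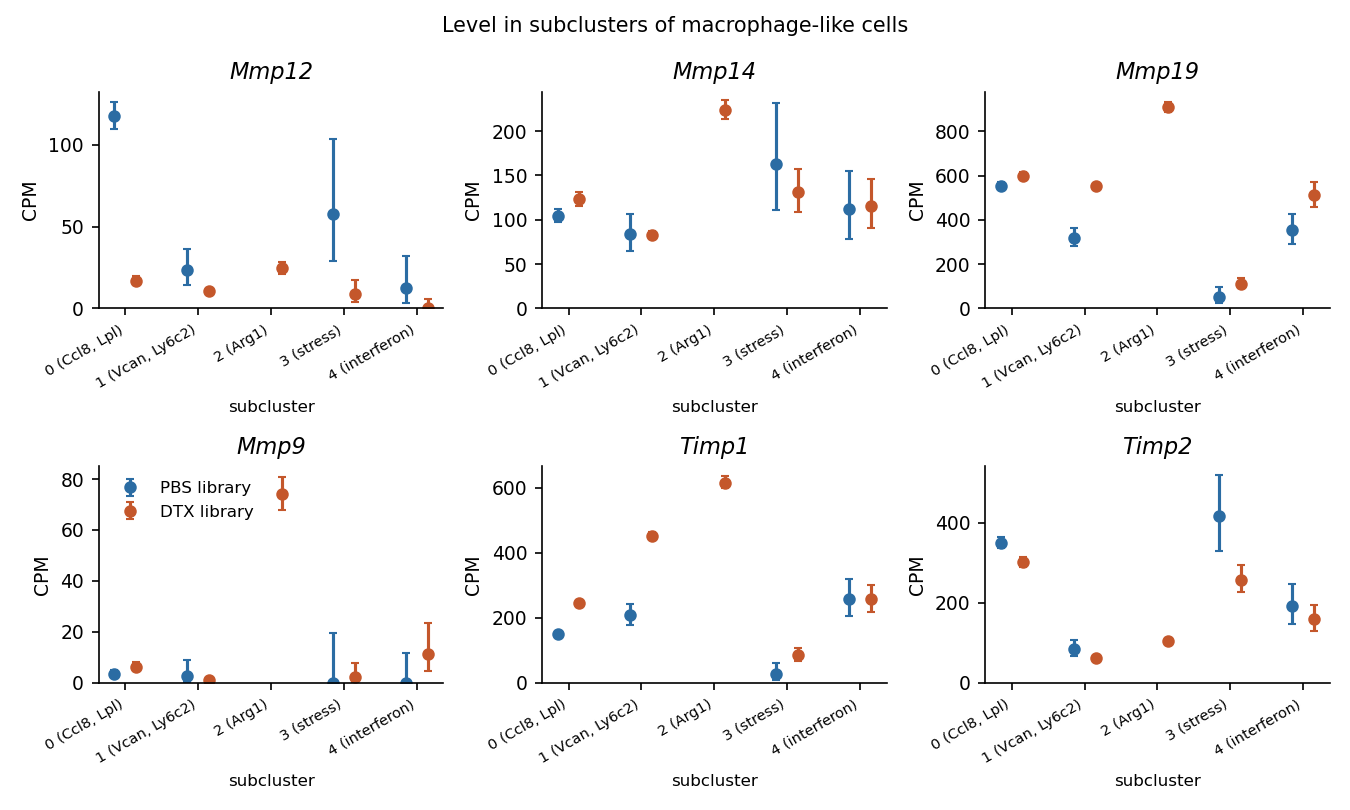
Level in CPM of 6 members in subclusters of macrophage-like cells, with exact 95% counting intervals, for subclusters with at least 40 cells in the library, so that the 5 PBS cells of subcluster 2 are not drawn. *Mmp12* is highest in PBS subcluster 0 (118 CPM), *Mmp9* in DTX subcluster 2 (74.3 CPM), and *Timp2* is low in subcluster 1 in both libraries. The *Mmp9* value of DTX subcluster 2 rests mainly on 6 cells with 475 *Mmp9* UMIs, which were placed in the dendritic class when doublets were kept.

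A few cells carried much of *Mmp12* and nearly all of *Mmp9*, and the cells described in this paragraph, those with at least 10 UMIs of a gene, were picked after their values had been seen. Of the 861 *Mmp12* UMIs of PBS macrophage-like cells, 50% lay in 11 cells, and the 21 cells with at least 10 UMIs held 584. These 21 cells were led by *Gpnmb* (1689 CPM, against 128 CPM in PBS macrophage-like cells with fewer than 10 *Mmp12* UMIs), *Rhoc*, *Sdc1*, *Itgax* and *Cd9*. In DTX, 9 cells held 161 of the 462 *Mmp12* UMIs. *Mmp9* in DTX macrophage-like cells rested on far fewer: of 583 UMIs 490 were in 7 of 4438 cells, with 12 to 162 UMIs each. The leading genes of these 7 cells were *Ctsk* (7585 CPM, against 35.0 in DTX macrophage-like cells with fewer than 10 *Mmp9* UMIs), *Atp6v0d2*, *Acp5*, *Tsc22d1*, *Nfatc1*, *C1qbp* and *Xpr1*. Of these *Ctsk*, *Atp6v0d2*, *Acp5* and *Nfatc1* are best known from bone-resorbing osteoclasts. The summed macrophage markers of the 7 cells were at 3697 CPM, against 20604 CPM in DTX macrophage-like cells without *Mmp9*. *Mrc1* and *C1qa* each had no UMI in 5 of the 7. When doublets were kept, 6 of the 7 cells, with 475 *Mmp9* UMIs, were placed in the dendritic class, and the ratio of *Mmp9* in macrophage-like cells turned as given above. In the main clustering these 6 cells were in the *Arg1*-high subcluster 2, although they had only 0 to 3 *Arg1* UMIs each.

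Droplets also capture free RNA, and the level of fibroblast RNA in macrophage-like cells moved with the libraries. The summed level of the 12 fibroblast markers in macrophage-like cells was 796 CPM in the PBS and 161 CPM in the DTX library, with 0 of the 12 higher in DTX and none at 0 in either library. If the fibroblast-derived RNA in a class keeps the proportions of fibroblast-like cells of the same library, a list of 10 fibroblast matrix genes gives the UMIs to be found there without any expression in the class. For *Mmp2* this scaled value was 155.5 UMIs in PBS and 121.3 in DTX macrophage-like cells, where 155 and 106 were counted, so the *Mmp2* count was near the scaled value in both libraries and its log2 ratio of -2.13 is not read as a difference in expression. For *Mmp3* the scaled values were 204.5 and 134.0, against 253 and 195 counted. For *Mmp12* the scaled PBS value was 0.6 UMIs against 861, and for *Timp1* 154.8 and 206.9 against 1320 and 12915 (the plot of counted against scaled UMIs). *Timp2* (2666 and 4268 counted, 162 and 102 scaled), *Mmp14* and *Mmp19* likewise lay far above the scaled values.

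**Figure D4:**
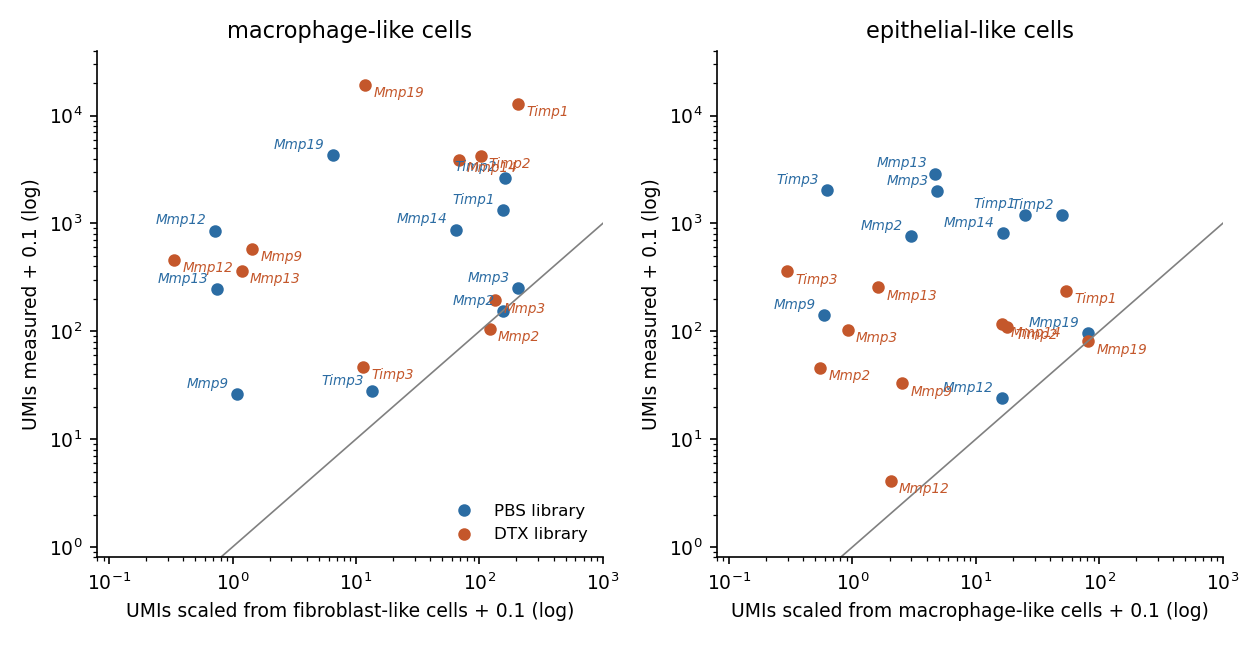
UMIs counted for each member in macrophage-like cells against UMIs scaled from fibroblast-like cells (left), and in epithelial-like cells against those scaled from macrophage-like cells (right), each after adding 0.1 and on log axes, with the line of equality. *Mmp2* in macrophage-like cells and *Mmp19* in epithelial-like cells lie on the line in both libraries.

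In fibroblast-like cells, the differences were smaller. *Mmp3* was at 2450.1 CPM in PBS and 1576 CPM in DTX (log2 ratio -0.64, -0.66 to -0.61), *Timp2* at 1944 and 1202 CPM (-0.69, -0.72 to -0.66), and *Mmp2* at 1864 and 1427 CPM (-0.39, -0.41 to -0.36). *Timp1* was higher in DTX, at 1855 and 2434 CPM (0.39, 0.37 to 0.41), as was *Mmp19*, at 77.2 and 138 CPM (0.83, 0.74 to 0.94). *Mmp14* was nearly level, at 770.3 and 798 CPM (0.05, 0.01 to 0.09). The median of all 11814 genes measured in this class was 0.12, so that *Mmp14* lay below that median. None of the 10 members was at least 2-fold higher and 1, *Mmp12*, was lower, where 2.66% of all measured genes were higher and 1.4% lower. *Mmp12* in this class rested on cells of mixed character: 134 of its 258 PBS UMIs were in 1 cell, and 141 were in a subcluster of 25 PBS cells that macrophage genes led. Without the subclusters led by genes of another class, no member was 2-fold lower in this class. Under the limit of 2000 genes per cell *Mmp14* turned to -0.68 and *Timp3* from -0.27 to 0.72. Macrophage RNA was also higher in DTX fibroblast-like cells, with 235 and 810 CPM for a list of 10 macrophage genes, and *Mmp19* scaled from macrophage-like cells came to 185 of 2705 UMIs in PBS and 222 of 1344 in DTX. The mixed subcluster 6, led by macrophage genes, held 2.11% of the *Mmp19* UMIs in PBS and 20.5% in DTX. Its share of the cells was 0.816% and 6.86%. Over the alternatives the log2 ratio of *Mmp19* ranged from 0.64 to 1.01.

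*Mmp3* and *Timp1* levels were spread widely over the fibroblast subclusters. *Mmp3* was highest in subclusters 0 (led by *Wfdc12*, *Ccl8* and *Vcam1*; 4231 CPM in PBS and 3563 in DTX) and 5 (*Igfbp2*, *F13a1*; 4293 and 4009 CPM), and was 992 and 736 CPM in subcluster 4, whose leading genes *Acta2*, *Spp1*, *Lrrc15*, *Postn* and *Tagln* include contractile and matrix genes of activated fibroblasts. Between subclusters 4 and 0 *Timp1* had the opposite order, with 3886 and 3153 CPM in subcluster 4 and 1481 and 2333 CPM in subcluster 0. Subcluster 3 was low in both, with 12.2% of the PBS cells but 4.68% of the *Mmp3* and 4.42% of the *Timp1* UMIs. In thinned PBS cells *Timp1* was detected in 65.3% (63.3% to 67.3%) of those with *Mmp3* and 58.8% (55.1% to 62.3%) of those without. In DTX the shares were 77.7% and 68.0%, with overlapping intervals. *Mmp9* came mostly from subcluster 4, which held 330 of the 417 PBS UMIs (69.3 CPM in PBS and 52.1 in DTX). Subcluster 0 held 874 PBS but 71 DTX cells and subcluster 5 136 and 17, and within subcluster 2, led by *Mgp* and *Prg4*, *Mmp3* was higher in the DTX library (1410.5 and 1813 CPM), against the direction of the class. *Mmp2* and its activator *Mmp14* were often found in the same cells: in the thinned PBS cells *Mmp14* was detected in 72.6% (70.9% to 74.3%) of fibroblast-like cells with *Mmp2* and in 56.7% (51.2% to 62.2%) of those without, and in DTX in 70.7% and 61.9% with overlapping intervals.

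In epithelial-like cells, the collagenase *Mmp13* was concentrated in a subset of cells. It was at 102 CPM (98.3 to 106, 2905 UMIs) in PBS and 66.2 CPM (58.3 to 74.8, 257 UMIs) in DTX, a log2 ratio of -0.62 (-0.81 to -0.44). In PBS only 189 of 2066 epithelial-like cells had a UMI of it, and 91 cells with at least 10 UMIs held 89.1% of them. Subcluster 2, led by *Igfbp3*, *Itga2* and *Col17a1*, genes of keratinocytes in contact with matrix, was highest, with 320.4 CPM in PBS and 273 CPM in DTX, against 7.23 and 0 CPM in the follicle infundibulum subcluster. In the PBS library subcluster 2 also held 52.3% of the epithelial *Mmp3* UMIs (197 CPM). The 91 *Mmp13*-rich PBS cells had 323 CPM of *Mmp3*, against 55.6 CPM in PBS epithelial-like cells with fewer than 10 *Mmp13* UMIs. Subcluster 2 held 429 PBS and 16 DTX cells. In DTX, 2 cells held 50% of the 257 *Mmp13* UMIs and 1 cell held 54 of the 103 *Mmp3* UMIs, so that the DTX values rest on few cells. In DTX, 53.4% of the *Mmp3* UMIs were in subcluster 6, a mixed subcluster that macrophage genes led, and 8.74% in subcluster 2. *Timp3* (72.0 and 93.2 CPM, 0.37, 0.21 to 0.53) was highest in other keratinocytes, with 271 and 269.8 CPM in subcluster 5, led by *Abi3bp* and *Cxcl14*.

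*Mmp19* in epithelial-like cells was at 3.4 CPM in PBS and 20.9 CPM in DTX, a log2 ratio of 2.32 (2.18 to 3.07), but 96 and 81 UMIs were counted where 80.9 and 81.1 were scaled from macrophage-like cells of the same library, and the list of macrophage genes in this class was at 126 and 740 CPM. Of these UMIs 33.3% in PBS and 75.3% in DTX were in the mixed subcluster 6, of 25 and 16 cells, and without it the ratio was 1.02. The part of free RNA and of mixed cells in this value was not tested. *Mmp3* (70.0 and 26.5 CPM, -1.37, -1.70 to -1.11) and *Mmp2* (26.7 and 11.8 CPM, -1.11, -1.64 to -0.74) were lower in DTX, beside 12 fibroblast markers at 784 and 277 CPM in this class. Scaled from fibroblast-like cells, *Mmp2* came to 508.7 of 761 UMIs in PBS and 23.2 of 46 in DTX, and *Mmp3* to 668.8 of 1992 and 25.6 of 103. Of 9 members measured, 1 was higher and 2 were lower, where 2.67% of the 10288 genes measured were higher and 2.07% lower.

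In the other 5 classes, 1 of 28 measured pairs of member and class was higher in DTX and 8 were lower, where 1.93% of all 27735 pairs of gene and class were higher and 2.12% lower. Of the 8 lower pairs 6 were *Mmp2* or *Mmp3*, in dendritic-like, pericyte-like and endothelial-like cells, and in dendritic-like cells the counts were near those scaled from fibroblast-like cells (52 and 6 *Mmp2* UMIs against 47.9 and 12.0; 69 and 22 *Mmp3* UMIs against 63.0 and 13.3). In pericyte-like cells *Mmp3* went from 203 to 5 UMIs (log2 ratio -5.84, -7.89 to -5.01), and 138 of the 203 were in 1 cell, without which the PBS level was 75.2 CPM. The list of 10 fibroblast matrix genes was at 27427 and 21245 CPM in pericyte-like cells and at 7842 and 3765 CPM in endothelial-like cells. The part of fibroblast RNA in the *Mmp2* and *Mmp3* values of these 2 classes was not tested. The other 2 lower pairs were *Mmp12* in dendritic-like cells, from 189.6 to 58.1 CPM (-1.69, -1.90 to -1.51), in the same direction as in macrophage-like cells, and *Timp2* in NK or T-like cells (114 and 52.9 CPM, -1.10, -1.52 to -0.72). The 23 dendritic-like PBS cells with at least 10 *Mmp12* UMIs were led by *Lpl*, *Pdpn*, *Fcgr3*, *Ccl17*, *Pf4*, *C1qa*, *Ms4a7* and *C1qc*. *C1qa* was at 1120 CPM in them, against 268 CPM in PBS dendritic-like cells with fewer than 10 *Mmp12* UMIs. Their summed macrophage markers were at 12513 CPM against 4919 CPM in PBS dendritic-like cells without *Mmp12*. The part of macrophage-like cells in the dendritic values was not tested.

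Neutrophil-like cells, in which *Mmp9* is stored in granules, had a similar *Mmp9* level in both libraries, with 399 CPM (316 to 497, 80 UMIs) in PBS and 380.1 CPM (345 to 418, 429 UMIs) in DTX, and the interval of the log2 ratio ran from -0.42 to 0.29. Of the few cells with at least 2000 UMIs, thinned to that depth, 5 of 12 in PBS (15.2% to 72.3%) and 87 of 202 in DTX (36.1% to 50.2%) had a UMI of *Mmp9*, and the 118 and 258 shallower cells were left out. The higher *Mmp9* of the DTX library as a whole, 23.1 against 9.86 CPM, went with more neutrophil-like cells (460 against 130) and with the 7 cells described above.

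In endothelial-like cells, the only member at least 2-fold higher in DTX was *Mmp13*, at 17.2 CPM (10.2 to 27.1, 18 UMIs) in PBS and 333 CPM (294 to 377, 257 UMIs) in DTX, a log2 ratio of 4.20 (3.59 to 5.06). Of the 257 UMIs 254 were in 5 of the 55 DTX cells. These 5 cells had the endothelial markers of the class (6041 CPM, against 6480 CPM in DTX endothelial-like cells without *Mmp13*). Against DTX endothelial-like cells with fewer than 10 *Mmp13* UMIs, they were led by *Ackr1* (3105 against 295 CPM) and *Serpinb1a*, each found in 3 of the 5 cells. *Fbln2*, *Slc4a7*, *Selp* (5278 against 1662 CPM), *Pxdc1*, *Lrg1* and *Nt5e* followed in this order. Of these *Ackr1* and *Selp* are known from post-capillary venules, and whether the 5 cells are of venules was not tested. The cells were picked after their values had been seen.

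Across the 8 classes, some directions recurred. *Timp1* was higher in DTX with an interval apart from 0 in 6 classes, from 0.39 in fibroblast-like to 1.41 in macrophage-like cells, and its interval included 0 in neutrophil-like and NK or T-like cells. With doublets kept it was at -0.09 in endothelial-like cells. *Timp2* was lower with an interval apart from 0 in 7 classes, from -0.50 in endothelial-like cells to -1.19 in macrophage-like cells, and was at 379 and 461 CPM in neutrophil-like cells (0.28, -0.07 to 0.65). With a mitochondrial limit of 10% *Timp2* turned to 0.81 in dendritic-like cells. *Timp2* was highest in fibroblast-like cells, and the list of 10 fibroblast matrix genes was also lower in DTX in other classes. It was at 921 and 298 CPM in epithelial-like cells and at 7842 and 3765 CPM in endothelial-like cells. The *Timp2* ratios are of counted UMIs, from which no fibroblast RNA was subtracted. In epithelial-like cells, scaling by this list as above assigned a larger part of the *Timp2* UMIs to fibroblast RNA in PBS than in DTX. The *Timp2* ratio of this class, 1 of the 7 above, is therefore not read as a difference in expression. The part of fibroblast RNA in the *Timp2* ratio of endothelial-like cells, also among the 7, was not tested. *Mmp14* stayed between -0.31 and 0.41 in the 6 classes with at least 50 UMIs. All classes come from the same pair of libraries, so that these directions are not independent of each other.

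The balance of inhibitors and proteases was described by the share of *Timp1*, *Timp2* and *Timp3* in the UMIs of all 10 genes. This share was higher in DTX in 7 of 8 classes, with intervals apart in 6 of these 7, the exception being NK or T-like cells. The protease UMIs include those of *Mmp2* and *Mmp3*, some of which were near the values scaled from fibroblast-like cells in other classes. No free RNA was subtracted, and its part in these differences was not tested. In fibroblast-like cells the share was 43.3% (43.1% to 43.5%) in PBS and 48.7% (48.4% to 49.1%) in DTX, with 5188 and 3970 CPM of the 7 proteases and 3961 and 3770 CPM of the inhibitors. In macrophage-like cells it was 37.3% (36.4% to 38.3%) and 40.8% (40.4% to 41.3%), with similar proteases (805 and 814 CPM) and 479 and 562 CPM of inhibitors, but under the limit of 2000 genes per cell the direction turned, with 38.4% and 35.9%. Pericyte-like cells had the highest share in both libraries, 71.0% and 84.5%, but 138 of their 591 protease UMIs in PBS were *Mmp3* UMIs of 1 of 61 cells. In endothelial-like cells the share went from 62.8% (59.8% to 65.6%) to 55.4% (52.2% to 58.5%), in which the 5 *Mmp13*-rich cells take part. UMIs of different genes were summed without scaling by capture, so the share compares classes and libraries and is not a ratio of proteins.

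**Figure D5:**
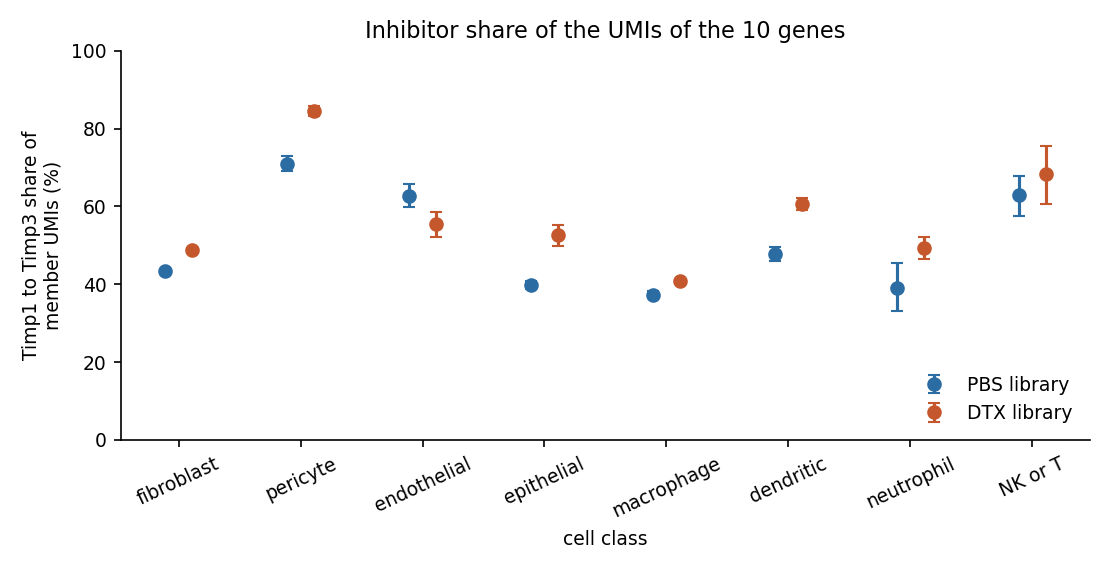
UMIs of *Timp1*, *Timp2* and *Timp3* as a percentage of the UMIs of all 10 genes, by cell class and library, with exact 95% binomial intervals. The DTX library is higher in 7 of 8 classes and lower in endothelial-like cells (55.4% against 62.8%). No free RNA of other classes was subtracted.

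The wider list held 61 further genes of metalloproteinases, inhibitors, their activation and clearance, ADAM and ADAMTS proteases and other matrix proteases. In macrophage-like cells 29 were measured, 2 were higher and 3 lower, where 1.62% of all genes measured in the class were higher and 3.32% lower. The median log2 ratio of the 29 was 0.16, against 0.06 over all genes. The higher genes were *Mmp8*, the neutrophil collagenase (6.45 and 27.0 CPM, 1.91), and *Lcn2*, whose product binds MMP9 (2.03 and 11.0 CPM, 1.99). In this class 8 neutrophil markers were at 317 and 538 CPM. The study lists both genes for its *Vcan*+ macrophages, and the monocyte-like subcluster 1 held 128 PBS and 1870 DTX cells. The part of neutrophil RNA or of subcluster 1 in these values was not tested. The lower genes were *Serpinb2*, an inhibitor of plasminogen activators (65.6 and 14.4 CPM, -2.11), *Thbs2* (8.60 and 1.37 CPM, -2.02) and *Adamts2* (5.38 and 0.816 CPM, -1.81). Scaled in the same way from epithelial-like cells, *Serpinb2* would be at 82.9 and 19.2 CPM, and scaled from fibroblast-like cells *Thbs2* would be at 5.83 and 1.04 CPM and *Adamts2* at 7.30 and 1.11 CPM, close to the counted values for these 3 genes.

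Of 45 genes of this list measured in fibroblast-like cells 2 were higher, *Adam8* (3.71 and 19.3 CPM, 2.11) and the aggrecanase *Adamts9* (10.9 and 24.6 CPM, 1.10), and 1 was lower, the collagen-degrading cathepsin *Ctsk* (3787 and 1879 CPM, -1.01). Of all genes measured in fibroblast-like cells 2.66% were higher and 1.4% lower. *Adam8* scaled from macrophage-like cells would be at 2.72 and 16.4 CPM, close to the counted values, while for *Ctsk* and *Adamts9* the scaled values were at most 2.58 CPM. In epithelial-like cells 2 of 31 were higher, *Lcn2* (32.8 and 164 CPM, 2.28) and *Adamts5* (14.5 and 32.5 CPM, 1.11), and 7 were lower. Of all genes measured in epithelial-like cells 2.67% were higher and 2.07% lower. The 8 neutrophil markers were at 135 and 525 CPM in this class, with 7 of the 8 higher in DTX, and their part in the *Lcn2* value was not tested. The lower genes included *Mmp10*, the neighbor of *Mmp3* on chromosome 9 (5.65 and 1.03 CPM, -1.71), whose value scaled from fibroblast-like cells was 0.0356 CPM in PBS. They also included *Ctsk* (31.2 and 1.55 CPM, -3.66), which scaled from fibroblast-like cells would be at 36.3 and 7.87 CPM. The remaining 5 were *Adamts2*, *Adamts4*, *Adamts14*, *Thbs2* and *Htra3*, with log2 ratios between -2.44 and -1.04. Scaled from fibroblast-like cells, *Adamts2* would be at 7.02 CPM in PBS (5.83 counted), *Htra3* at 4.42 CPM (3.09 counted), *Thbs2* at 5.61 CPM (9.55 counted), *Adamts4* at 1.31 CPM (2.99 counted) and *Adamts14* at 0.0780 CPM (2.46 counted).

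For each member the genes with the most similar pattern were sought by Pearson correlation of log2 CPM over 17 profiles of class and library, among 12141 genes. The profiles share 2 libraries and the correlations are descriptions. *Mmp2* was most like *Serpina3n* (0.98), *Aebp1* and *Tnxb*, *Mmp3* most like *Mfap4* (0.96), *Cilp* and *Pcolce2*, and *Timp3* most like *Tcim* (0.98), *Cavin3* and *Ptprg*. *Mmp19* was most like *Arap1* (0.96), *Pid1* and *Emilin2*, *Mmp14* most like *Nupr1* (0.96), *Pofut2* and *Slc39a1*, and *Timp2* most like *Glb1l* (0.93), *Ccl7* and *Cped1*. Looser likeness was found for *Mmp12*, with *Ids* (0.90), *Mgl2* and *Rnf180*, *Mmp9*, with *Il1rap* (0.89), *Hnmt* and *Mpp7*, and *Mmp13*, with *Hyal2* (0.83), *Rab11a* and *Tmem144*. *Timp1* was the only member whose closest gene was another member, *Mmp14* (0.91), followed by *Cd63*, a cell surface binding partner of TIMP1, and *Adamtsl4*.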

How the data were processed

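Single-cell RNA sequencing was performed by the authors on live cells sorted from pooled mouse wounds, with droplet capture by the Chromium 3′ v3 chemistry, which tags the 3′ end of each RNA with a cell barcode and a UMI. The deposited values are raw counts of UMIs for each gene in each cell. Per the file headers they come from Cell Ranger 6.1.1, the build is mm10, and the methods name an earlier release. Reads of 1 molecule are counted once, and the counts are not normalized. The depth was 105511870 and 81858751 UMIs, with medians of 7649 and 6502 per barcode.

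Here cells with fewer than 500 genes or more than 6% mitochondrial UMIs were dropped, and doublets were scored with Scrublet in scanpy 1.11.5. The threshold of Scrublet removed 382 PBS cells (4.59%); it marked 0 DTX cells, so that the top 8% of scores (575 cells) were removed there. Clustering used R 4.3.3 and Seurat 5.3.0 with 2000 variable genes, 30 principal components and resolution 0.2 (0.3 for subclusters), without the members and the wider list (35 variable genes left out for all cells). Clusters were named from marker lists, and subclusters led by genes of another class were kept in the main values. Levels are summed UMIs in CPM. Poisson, Clopper-Pearson and conditional binomial intervals (scipy 1.17.1, with numpy 2.4.6, pandas 2.3.3 and Python 3.11.15) cover counting error only, and figures were drawn with matplotlib 3.10.9. Cells are not replicates, and with 1 library per group 0 tests between conditions were made. The calculation of the ratios was tried on simulated Poisson counts with known fold changes. Such counts hold neither the gathering of UMIs in few cells nor differences between mice. They check the calculation and not how well the intervals describe these data.

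All 10 members are named in the text, with the wider genes at least 2-fold apart in a class with at least 50 UMIs (at most 10 per class) and the 3 genes most like each member among those with at least 200 UMIs. The members and lists were chosen with earlier results of these data known. Of the 61 wider genes 60 were among the features. The upper limit of 2000 genes per cell given in the methods was used as an alternative only. Other alternatives were doublets kept, a mitochondrial limit of 10%, all variable genes, resolution 0.4, 0.1 CPM added, median scaling, equal weight of cells, minimums of 200 UMIs or 1 UMI, thinning to 1000 UMIs or none, and, added after the data had been seen, mixed subclusters left out.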

Additional observations from a re-analysis of the deposited data

Results flagged for a closer look

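*Mmp13* differed in opposite directions in different classes of the same libraries, with a log2 ratio of DTX over PBS of 4.20 in endothelial-like cells and -1.24 in macrophage-like cells. The difference between these classes was not tested, since each library is a single sample. The endothelial value rests on 5 of 55 DTX cells, which held 254 of 257 UMIs. The macrophage value rests on 246 PBS and 363 DTX UMIs, of which 50% lay in 22 of 1710 PBS and 18 of 4438 DTX cells.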

How the results depend on the processing

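No paired analysis was possible because each group has 1 library and no test was made. Of 20 pairs of member and class at least 2-fold apart, 19 kept their direction under every alternative run, and of all 57 measured pairs 39 did. The exception was *Mmp9* in macrophage-like cells, at -0.32 with doublets kept and -0.11 with a mitochondrial limit of 10%, where 6 cells moved to another class. For macrophage-like cells the log2 ratio ranged from 0.49 to 1.42 for *Timp1*, from -1.29 to -0.85 for *Timp2* and from -2.76 to -2.23 for *Mmp12*.

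Counts of genes at least 2-fold apart changed as follows, and the cause was not tested except that the minimum of UMIs sets which genes are measured. The share of all genes past 2-fold under each alternative is not given here. These counts therefore describe the settings and are not read as results about the members. Under the limit of 2000 genes per cell the fibroblast-like class held only 59 DTX cells. With doublets kept, the members higher in macrophage-like cells went from 2 to 1 and in the other classes from 1 to 5, and the wider genes lower in macrophage-like cells from 3 to 6 and in fibroblast-like cells from 1 to 0. With the limit of 2000 genes per cell, the members were 0 higher in macrophage-like cells, 2 higher and 2 lower in fibroblast-like cells and 0 lower in epithelial-like cells, and the wider genes 5 lower in macrophage-like cells, 10 lower in fibroblast-like cells, and 0 higher and 2 lower in epithelial-like cells. With the mitochondrial limit of 10%, the members were 1 higher in macrophage-like cells, 0 lower in fibroblast-like cells, 1 lower in epithelial-like cells and 4 higher in the other classes, and the wider genes 7 lower in macrophage-like cells, 0 lower in fibroblast-like cells and 1 higher in epithelial-like cells. The wider genes lower in macrophage-like cells were 7 with 0.1 CPM added, with median scaling and with equal weight of cells, 1 with at least 200 UMIs and 6 without a minimum. In fibroblast-like cells 1 wider gene was higher with median scaling, 2 were lower with 0.1 CPM added, and with mixed subclusters left out 0 members and 0 wider genes were lower. With at least 200 UMIs, 0 members were higher and 2 wider genes lower in epithelial-like cells and 4 members lower in the other classes. Equal weight of cells left 1 member lower in epithelial-like cells, and without a minimum 5 members were higher and 17 lower in the other classes. Depth limits the small classes most: with 55 to 130 cells, a member at 0 UMIs there can be present below the floor of 3 counts.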

Other observations

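Langerhans-like cells, of which the DTX library held 37 and which therefore entered no comparison, had *Mmp9* at 97.6 CPM (81.2 to 116, 124 UMIs) in the PBS library and 98.1 CPM (70.4 to 133, 41 UMIs) in the DTX library. Their *Mmp12* level was 44.8 CPM (34.0 to 58.1) and 9.57 CPM (2.61 to 24.5), and their *Timp1* level 185 CPM (162 to 210.1) and 270.5 CPM (223 to 325).

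Within macrophage-like cells *Mmp13* was highest in the interferon-gene subcluster, an observation made after the values had been seen, with 118 CPM in its 60 PBS cells and 94.7 CPM in its 74 DTX cells, against 27.6 and 8.49 CPM in subcluster 0. These levels rest on 15.4% of the 246 PBS and 16.0% of the 363 DTX *Mmp13* UMIs of the class. In DTX, 8 cells of the class held 117 of the 363. How many cells set the level of this subcluster was not examined.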
